A study of Mus musculus with 2 samples.

Results

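The 9 genes described here regulate or carry signals of the transcription factor NF-kB: Nfkbia, Nfkbiz, Nfkb1, Nfkb2, Rela, Relb, Tnfaip3, Tnf and Icam1. They were taken by symbol from the 32286 features of a single-cell RNA sequencing study of mouse bone marrow, and all 9 were found. The study holds 2 libraries of primary hematopoietic bone marrow cells and was made to compare gene expression after overexpression of MYC that starts in hematopoietic stem cells. The control library has the genotype Mx1Cre+/-;Rosa26+/+, while the second, the MYC library, has Mx1Cre+/-;Rosa26LSL-MYC/LSL-MYC. Both groups thus carry 1 copy of a Cre recombinase under the Mx1 promoter, which responds to interferon and is not limited to stem cells, and the groups differ in a MYC transgene on both Rosa26 alleles that is silent until Cre removes a stop cassette. The age of the mice, how many were pooled, how Cre was induced and the time after induction are not given in the sources used here. With 1 library per group no difference could be tested, genotype and library preparation cannot be told apart. The intervals given are at 95% and cover only the error of counting molecules.

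NF-kB is a family of dimers that wait in the cytoplasm, held by inhibitory IkB proteins. Signals from tumour necrosis factor, interleukin-1 or microbial products activate IkB kinase, the inhibitor is degraded, and the dimer enters the nucleus. Several of its best known targets shut the pathway down again, among them the inhibitor IkB-alpha and the ubiquitin-editing enzyme A20. In the marrow, neutrophils and monocytes use the pathway for rapid inflammatory responses, and lymphocytes also use its noncanonical arm of p100 and RelB.

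The members were grouped by role. Nfkbia encodes IkB-alpha, and Nfkbiz encodes IkB-zeta, a nuclear IkB protein that helps switch on secondary response genes. Nfkb1 (p105 and p50), Rela (p65), Nfkb2 (p100 and p52) and Relb encode subunits. Tnfaip3 encodes A20, Tnf the cytokine that starts the pathway, and Icam1 an adhesion molecule that the pathway induces. On GRCm38 the genes lie at chr12:55489410-55492647 (Nfkbia), chr16:55811375-55838899 (Nfkbiz), chr3:135584655-135691547 (Nfkb1), chr19:46304320-46312385 (Nfkb2), chr19:5637483-5648130 (Rela), chr7:19606217-19629438 (Relb), chr10:19000910-19015657 (Tnfaip3), chr17:35199381-35202007 (Tnf) and chr9:21015985-21028817 (Icam1), and all 9 are annotated as protein-coding.

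RefSeq promoters (GRCm38.p6) from 250 bases before to 50 bases after a start site were matched for 6 of the 9 members. The 3 printed here, each as the 150 bases before the start site on the gene's strand, belong to the inhibitors Nfkbia and Tnfaip3 and the subunit gene Nfkb2, the members in whose window the NF-kB consensus was found. Capitals mark matches to the NF-kB consensus, searched on both strands.
Nfkbia: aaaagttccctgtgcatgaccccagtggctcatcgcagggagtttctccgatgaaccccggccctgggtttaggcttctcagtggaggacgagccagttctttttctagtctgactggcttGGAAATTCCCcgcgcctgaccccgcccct
Tnfaip3: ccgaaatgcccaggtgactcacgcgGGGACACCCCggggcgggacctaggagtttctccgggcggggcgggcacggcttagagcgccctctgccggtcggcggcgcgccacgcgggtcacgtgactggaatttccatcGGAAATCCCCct
Nfkb2: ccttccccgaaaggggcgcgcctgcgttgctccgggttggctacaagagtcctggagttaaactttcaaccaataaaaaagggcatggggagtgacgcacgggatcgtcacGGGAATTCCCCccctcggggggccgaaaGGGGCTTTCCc
These windows are chr12:55492648-55492797 on the minus strand, chr10:19015411-19015560 on the minus strand and chr19:46304587-46304736 on the plus strand. Nfkb2 has 3 listed promoters and Tnfaip3 has 2, and the one shown is the one with the most matches near its start. The consensus was found in 8.46% of all 32851 promoters of 300 bases. It was not found in this window of Rela, Tnf or Icam1, and the Tnf promoter holds the letters TATAAA, which 13.6% of all promoters hold, 29 bases before the start. The Tnfaip3 promoter also holds CACGTG, the letters of the E-box bound by MYC among other factors, 33 bases before its start, and 7.15% of all promoters hold it. A match is a run of letters and not evidence of binding.

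Unique molecular identifiers (UMIs) numbered 131884603 over 17073 barcodes of the control library. For the MYC library they numbered 110012176 over 14496. After filters 14903 control cells (median 5343 UMIs) and 12540 cells of the MYC library (median 6016) were kept, 79 of whose barcode sequences occurred in both libraries. The added MYC feature had 0 UMIs in kept control cells and 289 in the MYC library, as its label says. Marker genes named 14 classes. The comparison between the libraries rests mainly on granulocyte progenitors (500 control and 439 MYC library cells), immature neutrophils (3764 and 3161), mature neutrophils (2408 and 2244) and monocytes (1285 and 1615). Levels are counts per 1e+06 UMIs of a class (CPM). No cluster met the naming rule for macrophages. The nearest, cluster 11, was led by the macrophage genes C1qa, C1qb and C1qc together with the nonclassical monocyte genes Fabp4 and Cd300e. It held 20 control cells and 637 cells of the MYC library and is described by its number. Cluster 16, led by MHC class II genes, and the low-UMI cluster 0 also stayed unnamed.

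The IkB gene Nfkbiz had the steepest course along the neutrophil stages of all 9 members. Its level in the control library was 7.02 CPM in granulocyte progenitors, 71.9 CPM in immature neutrophils and 220.3 CPM in mature neutrophils. The MYC library showed nearly the same course, with 7.39, 67.2 and 223.7 CPM. Mature neutrophils thus stood 31.4-fold above granulocyte progenitors in the control (24.9 to 40.1) and 30.3-fold in the MYC library (23.6 to 39.5). Granulocyte progenitors hold far more UMIs per cell (median 20266 against 3463.5 in the control), and per cell the gap was 5.31-fold (4.21 to 6.79) and 7.72-fold (6.01 to 10.1). After each cell was thinned to 2000 UMIs, a Nfkbiz UMI was found in 1.21% of granulocyte progenitors and 31.9% of mature neutrophils of the control, and in 1.37% and 32.3% in the MYC library. Unthinned shares were 11% and 44.4% in control cells and 10.3% and 55.8% in the MYC library. Erythroid cells, which should hold little of it, had thinned shares of 1.40% and 1.15%, so the share in granulocyte progenitors was at the level of that background.

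Outside the neutrophils Nfkbiz was as high in nonclassical monocytes of the control, at 224.0 CPM, which lay within counting error of mature neutrophils. The class named monocyte stood at 19.8 CPM in control cells and 15.5 CPM in the MYC library. Nonclassical monocytes of the MYC library were lower, at 141.4 CPM (72 UMIs), a log2 ratio of -0.66 (-1.08 to -0.26). In the same cells the 11 conventional dendritic cell markers summed to 2019 and 752 CPM (4 at 0 in each library) and the 10 monocyte markers to 4296 and 2938 CPM (none at 0). Neutrophil markers were higher there in the MYC library, with 2102 and 3079 CPM for the 8 mature and 4107 and 5288 CPM for the 8 immature ones. The part of these cells in the ratio was not tested. In stem or multipotent progenitors 13.5 CPM stood against 5.83 CPM, a log2 ratio of -1.21 (-2.0 to -0.47) from 59 and 21 UMIs.

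**Figure D1:**
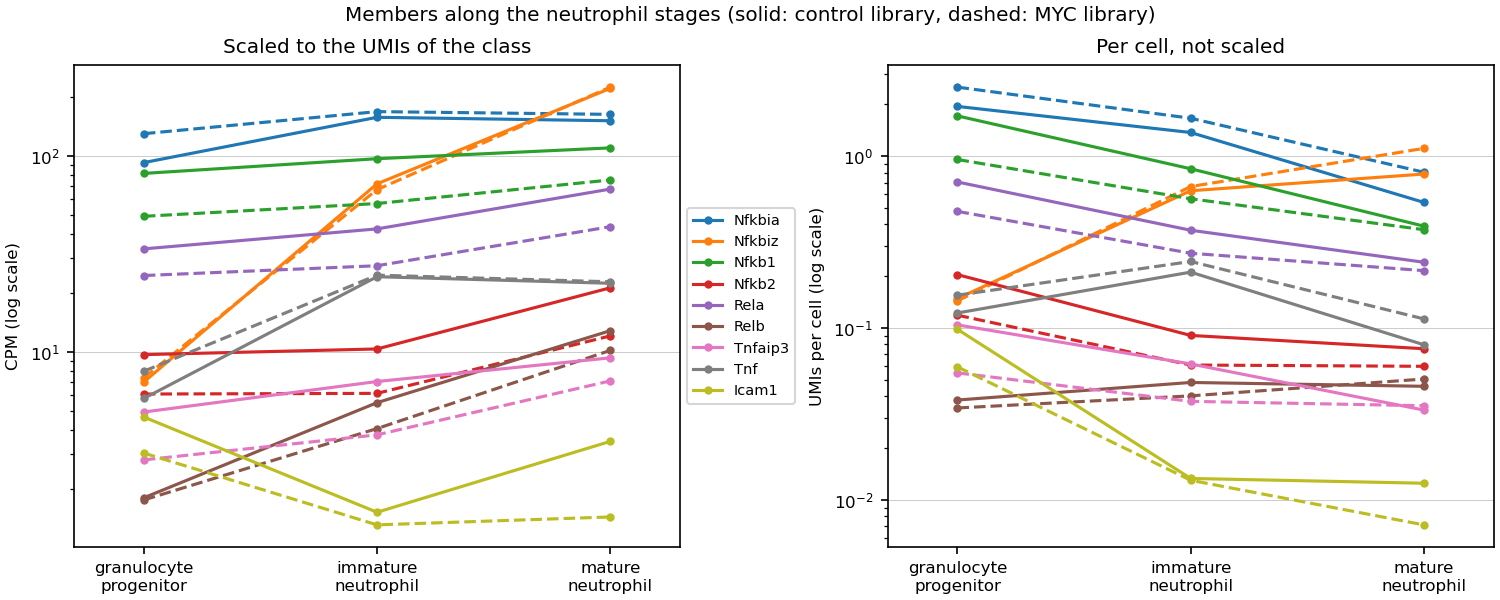
Level of each member in granulocyte progenitors, immature and mature neutrophils, as CPM on the left and as UMIs per cell on the right (log axes, points are class sums of 1 library, solid lines control and dashed lines MYC library). Nfkbiz climbs on both scales, from 7.02 to 220.3 CPM in the control, while Nfkb1 and Rela climb in CPM and decline per cell. Nfkbia also declines per cell, and in CPM it climbs only up to the immature stage.

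Nfkbia, the IkB-alpha gene, had a flatter course. In the control it stood at 92.3 CPM in granulocyte progenitors, 157 CPM in immature and 151 CPM in mature neutrophils, and in the MYC library at 129.5, 168 and 163 CPM. The last 2 stages lay within counting error of each other in both libraries. Scaling decides the direction along the stages, because per cell the mature stage held 0.276 times the Nfkbia UMIs of granulocyte progenitors in control cells and 0.320 times in the MYC library. Monocytes were lower than neutrophils, at 78.2 and 95.7 CPM, and nonclassical monocytes higher, at 219 and 192 CPM. Erythroid cells marked the low end, with 14.6 and 25.1 CPM and thinned shares of 1.68% and 3.15% against 23.1% and 24.5% in mature neutrophils. The highest value in any group of cells with at least 50 cells was cluster 11 of the MYC library, at 414 CPM (394 to 435, 1595 UMIs in 637 cells).

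The 2 canonical subunit genes were spread widely over the marrow. Among the named classes Nfkb1 was highest in nonclassical monocytes, at 289 CPM in control cells and 236 CPM in the MYC library, and the unnamed cluster 11 stood at 298.8 CPM (20 cells) and 254.7 CPM (637 cells). In the control, plasmacytoid dendritic cells (192 CPM), mature B cells (168), monocytes (163) and T cells (161) followed, each within counting error of the next. Mature neutrophils stood below them at 109.6 CPM, and plasma cells (30.7), megakaryocytes (30.2) and erythroid cells (25.1) were lowest. Rela varied least over the control classes, from 22.1 CPM in plasma cells to 67.6 CPM in mature neutrophils, and most neighbours in that order could not be told apart.

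Among the named classes the noncanonical subunit genes were highest in mature B cells. Nfkb2 stood there at 95.3 CPM (84.8 to 107) in control cells and 51.3 CPM (35.7 to 71.3) in the MYC library, against 9.68 and 6.10 CPM in granulocyte progenitors. Relb stood there at 30.3 and 30.8 CPM, followed within counting error by nonclassical monocytes (26.8 CPM) and T cells (23.0 CPM) in the control. The unnamed cluster 16, with its MHC class II genes, had 36.6 CPM (28.7 to 45.9) and 32.7 CPM (24.9 to 42.2) of Relb, within counting error of mature B cells, and 69.2 and 48.2 CPM of Nfkb2. Along the neutrophil stages Relb went from 1.80 to 5.51 to 12.8 CPM in control cells and from 1.76 to 4.06 to 10.2 CPM in the MYC library. These are small numbers, since 110 and 113 Relb UMIs were counted in all mature neutrophils.

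Tnfaip3, the A20 gene, was sparse in the neutrophil lineage and higher in T cells and in basophils or mast cells. Control levels were 35.5 CPM in basophils or mast cells, 32.8 in plasmacytoid dendritic cells, 26.8 in T cells and 25.8 in mature B cells, each within counting error of the next. Neutrophil stages had 4.94, 7.06 and 9.32 CPM and monocytes 10.8 CPM. Of mature neutrophils 3.07% in control cells and 2.94% in the MYC library held a UMI, at median depths of 3463.5 and 4886.5 UMIs, and 3.19% and 1.99% of erythroid cells did. The thinned shares were 2.23% and 1.17% in mature neutrophils and 0.747% and 0.860% in erythroid cells.

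Tnf was a transcript of neutrophils more than of the monocyte class in this marrow, as measured in CPM. The control had 5.79 CPM in granulocyte progenitors, 24.2 CPM in immature and 22.4 CPM in mature neutrophils, and 5.09 CPM in monocytes. The MYC library had 7.97, 24.6 and 22.8 CPM in those stages and 4.22 CPM in monocytes. Mature neutrophils were 4.39-fold above monocytes in the control (3.41 to 5.70) and 5.39-fold in the MYC library (4.29 to 6.83). Per cell, the ratio was 1.11 (0.864 to 1.44) in the control, an interval that included 1, and 1.70 (1.35 to 2.15) in the MYC library, since a monocyte holds more UMIs. Thinned shares of cells with a Tnf UMI were 4.23% and 4.01% in mature neutrophils, 0.628% and 0.815% in monocytes and 0.280% and 0.287% in erythroid cells. Nonclassical monocytes had 24.4 CPM from only 20 UMIs in control cells and 5.89 CPM from 3 UMIs in MYC library cells.

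Icam1 had the opposite distribution. Among the named classes it was highest in T cells, at 42.2 CPM in control cells and 61.8 CPM in the MYC library, and plasmacytoid dendritic cells of the control followed with 36.1 CPM, within counting error. The unnamed cluster 16 had 52.4 CPM in control cells, from 106 UMIs, and 28.3 CPM in MYC library cells. Monocytes had 12.5 and 19.1 CPM. Immature neutrophils were near the floor, with 1.52 and 1.31 CPM, and mature neutrophils had 3.50 and 1.44 CPM from 30 and 16 UMIs. Erythroid cells, as a background, had 0.905 and 1.60 CPM. Thinned shares in mature neutrophils were 0.790% and 0.0977%, and the second was not above the 0.860% of erythroid cells in that library.

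**Figure D2:**
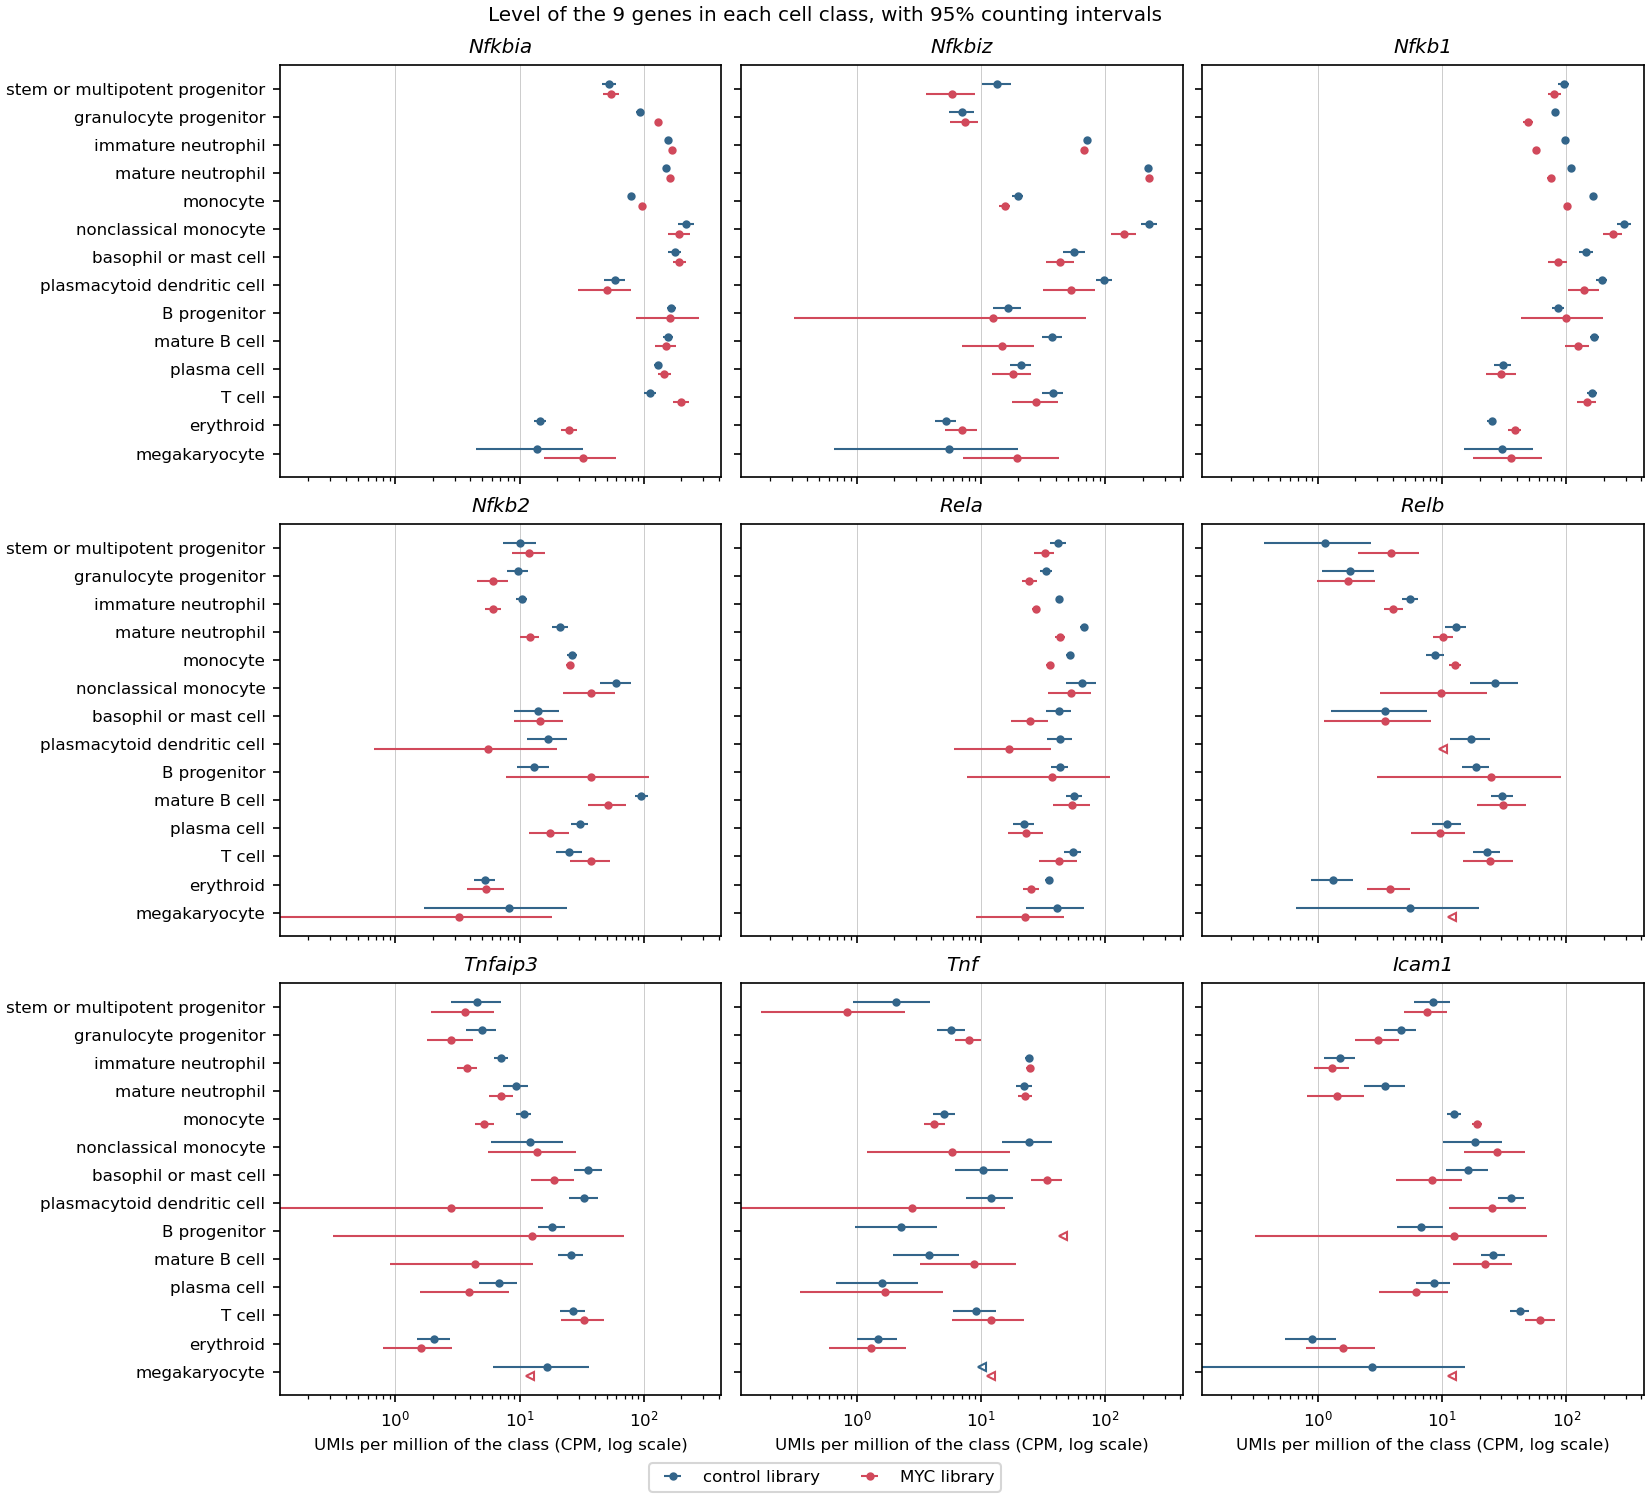
Level of each member in the 14 named classes (CPM on a shared log axis, points are class sums, bars are 95% counting intervals, blue is the control and red the MYC library; an open triangle is the upper limit where no UMI was counted). Nfkbiz is high in mature neutrophils and nonclassical monocytes, Icam1 has its highest values in T cells, and Nfkb2 and Relb have theirs in mature B cells.

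Between the libraries, the subunit genes Nfkb1 and Rela were lower in the MYC library in all 3 neutrophil stages and in monocytes. Nfkb1 went from 81.3 to 49.1 CPM in granulocyte progenitors, from 96.6 to 57.1 CPM in immature neutrophils, from 109.6 to 75.2 CPM in mature neutrophils and from 163 to 100.1 CPM in monocytes. Its log2 ratios were -0.73 (-0.90 to -0.56), -0.76 (-0.84 to -0.68), -0.54 (-0.68 to -0.41) and -0.70 (-0.78 to -0.62). All 4 intervals lie below 0. Rela went from 33.5 to 24.5, from 42.4 to 27.5, from 67.6 to 43.5 and from 51.8 to 35.8 CPM in the same order of classes, with log2 ratios of -0.45, -0.62, -0.64 and -0.53.

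Most genes were also lower in the MYC library on this scale. The median gene had a log2 ratio of -0.33 in granulocyte progenitors, -0.21 in immature neutrophils, -0.24 in mature neutrophils and -0.15 in monocytes, taken over genes that reached 50 UMIs there. Measured from those medians, by median-of-ratios scaling, Nfkb1 was still lower, with log2 ratios of -0.40, -0.55, -0.31 and -0.55 and intervals below 0. Rela was lower in immature neutrophils (-0.42), mature neutrophils (-0.40) and monocytes (-0.38), but in granulocyte progenitors its ratio of -0.12 (-0.37 to 0.13) included 0. Per cell the difference in mature neutrophils was smaller, since cells of the MYC library held more UMIs, and the Nfkb1 counts of 0.391 and 0.373 UMIs per cell gave a log2 ratio of -0.07. Marker sums differed beside these ratios. In granulocyte progenitors the 8 immature neutrophil markers summed to 18822 and 23385 CPM, the 10 monocyte markers to 1568 and 1200 CPM and the 9 nonclassical monocyte markers to 251 and 156 CPM. In immature neutrophils the class's own 8 markers summed to 119137 and 107734 CPM, the 8 of basophils or mast cells to 776 and 548 CPM, the 12 erythroid ones to 593 and 416 CPM and the 11 of conventional dendritic cells to 101 and 60.7 CPM. Their part in the ratios was not tested.

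Nfkb2 was lower in the neutrophil stages, with 9.68 and 6.10 CPM in granulocyte progenitors, 10.3 and 6.14 CPM in immature and 21.2 and 12.1 CPM in mature neutrophils. The log2 ratios were -0.67 (-1.18 to -0.17), -0.75 (-1.01 to -0.49) and -0.81 (-1.15 to -0.48). After median-of-ratios scaling the ratio in granulocyte progenitors was -0.34 (-0.85 to 0.16), which includes 0, and those of the other 2 stages stayed below 0. In monocytes the 26.3 and 25.3 CPM of Nfkb2 lay within counting error (log2 ratio -0.06, -0.23 to 0.12). Its partner Relb had a log2 ratio of -0.44 (-0.78 to -0.10) in immature neutrophils, or -0.23 (-0.57 to 0.10) after scaling, and of 0.53 (0.25 to 0.81) in monocytes, where 8.80 CPM stood against 12.7 CPM.

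Among the inhibitors, Tnfaip3 and Nfkbia differed in opposite directions in granulocyte progenitors, immature neutrophils and monocytes taken as whole classes. Tnfaip3 was lower in the MYC library, with 4.94 and 2.81 CPM in granulocyte progenitors (52 and 24 UMIs), 7.06 and 3.78 CPM in immature neutrophils and 10.8 and 5.21 CPM in monocytes. Its log2 ratios there were -0.81 (-1.57 to -0.09), -0.90 (-1.24 to -0.58) and -1.05 (-1.38 to -0.73), and in mature neutrophils -0.39 (-0.86 to 0.08), which includes 0. After median-of-ratios scaling the ratio in granulocyte progenitors included 0 as well, at -0.48 (-1.24 to 0.24). Nfkbia was higher, by log2 ratios of 0.49 (0.36 to 0.62) in granulocyte progenitors, 0.10 (0.04 to 0.15) in immature neutrophils and 0.29 (0.20 to 0.39) in monocytes. In mature neutrophils its log2 ratio was 0.11, with a lower bound just above 0. The direction of Nfkbia held under every alternative computed for the other 3 of these classes, but in immature neutrophils it was reversed within clusters 1 and 8.

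On the CPM scale the Tnf ratios of all 4 classes had intervals that include 0, with log2 ratios of 0.46 (-0.06 to 0.98), 0.03 (-0.12 to 0.17), 0.03 (-0.25 to 0.30) and -0.27 (-0.69 to 0.15) in the same order. Other scales moved them. After median-of-ratios scaling Tnf had 0.79 (0.27 to 1.31) in granulocyte progenitors and 0.23 (0.09 to 0.38) in immature neutrophils, and per cell the MYC library held 1.41 times the Tnf UMIs in mature neutrophils (1.17 to 1.71) and 1.15 times in immature ones (1.04 to 1.28). Icam1 was higher in monocytes of the MYC library, at 19.1 against 12.5 CPM (log2 ratio 0.62, 0.39 to 0.85). In mature neutrophils Icam1 had too few UMIs for a count, and its log2 ratio of -1.28 (-2.25 to -0.36) was not present within the clusters of the class, with 1 and 12 UMIs in cluster 2 (0.72) and 29 and 4 UMIs in cluster 3 (0.06), both with intervals that include 0. Nfkbiz had log2 ratios of 0.07, -0.10 (-0.18 to -0.01) and 0.02 in the neutrophil stages, and the sign in immature neutrophils changed with the scaling and within clusters. In monocytes the class ratio was -0.35 (-0.56 to -0.14). Nfkbiz was lower in their cluster 6 (36.0 and 24.0 CPM, -0.59, -0.89 to -0.28), while in cluster 5, which held more of the cells, 11.9 and 12.5 CPM gave 0.07 (-0.24 to 0.38), and after median-of-ratios scaling the class ratio of -0.20 (-0.41 to 0.01) included 0.

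Counted at 1.5-fold, among members with at least 50 UMIs in the class, 4 of 8 members were lower in granulocyte progenitors (Nfkb1, Nfkb2, Tnfaip3 and Icam1, the last with an interval of its log2 ratio from -1.36 to 0.10), beside 28.2% of all genes counted there, and 0 were higher beside 3.75%. In immature neutrophils 4 of 9 were lower (Nfkb1, Nfkb2, Rela and Tnfaip3) beside 18% of all genes, and 0 were higher beside 8.73%. In mature neutrophils 2 of 8 were lower (Nfkb2 and Rela) beside 25.2% of all genes, a share near that background, and 0 were higher beside 9.39%. Monocytes had 2 of 9 lower (Nfkb1 and Tnfaip3) beside 17%, and 1 higher (Icam1) beside 8.88%. The Icam1 ratio of 0.62 lies just past 1.5-fold and fell short of it at Leiden resolution 0.5 (0.32), with each library clustered on its own (0.44), with doublets kept (0.56), in cells under 5% mitochondrial UMIs (0.19) and in cells with at least 1000 UMIs and 500 genes (0.56). After median-of-ratios scaling the counts of lower members were 0, 1, 0 and 1 (Tnfaip3 in both), beside 7.92%, 8.13%, 13.9% and 10.5% of all genes, and of higher members 2 (Nfkbia and Tnf), 0, 0 and 2 (Relb and Icam1), beside 14.5%, 15.4%, 16.5% and 14.2%. The median log2 ratio of the counted members was -0.53, -0.44, -0.36 and -0.27, against the all-gene medians given above.

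**Figure D3:**
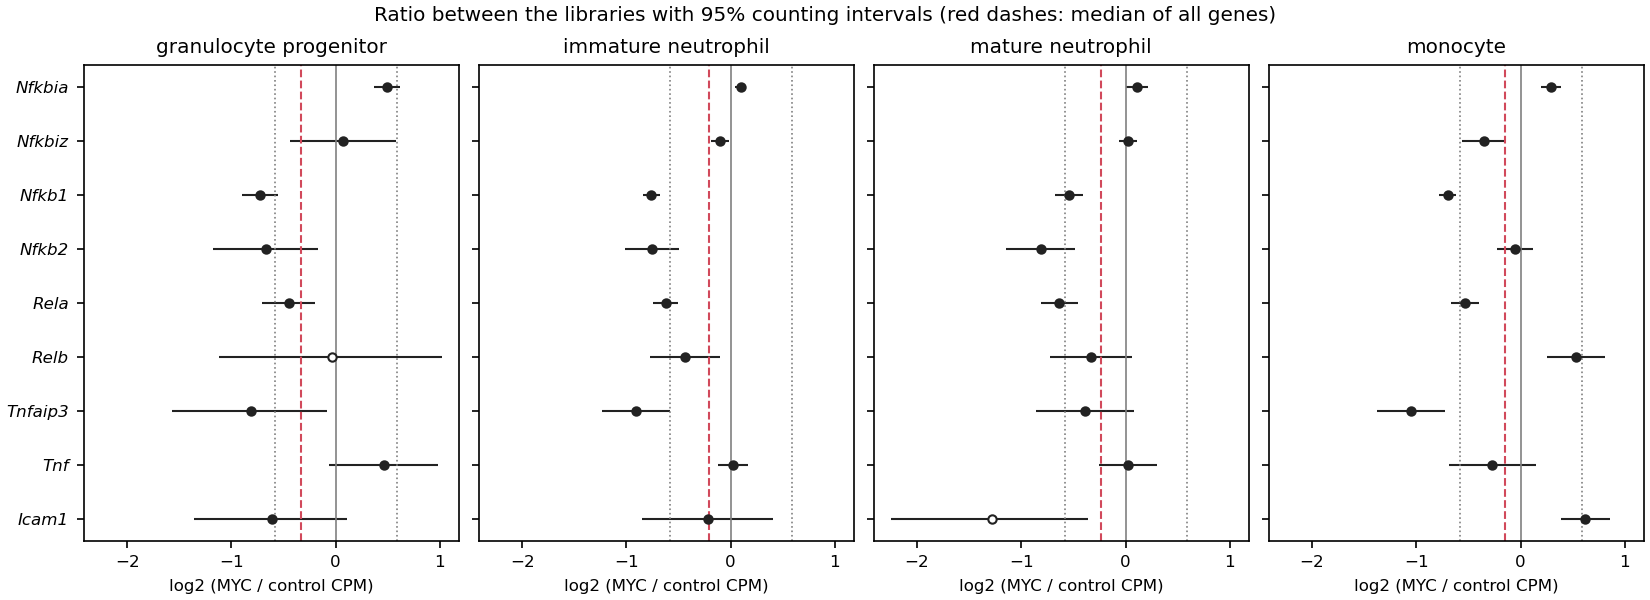
Log2 ratio of CPM, MYC library over control, of each member in 4 classes (points with 95% counting intervals, open where fewer than 50 UMIs were counted, dotted lines at 1.5-fold, red dashes at the median of all genes). Nfkb1 and Rela lie left of the all-gene median in all 4 panels, with the interval of Rela in granulocyte progenitors reaching across it, and Nfkbia lies right of 0.

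The 2 libraries filled different clusters of mature neutrophils, so the ratios were also taken within clusters, a step added after the data were seen. All ratios within clusters are on the CPM scale, and no shift of the median gene was taken out of them. Cluster 2, led by Stfa2l1 and Retnlg, held 343 control cells and 2004 cells of the MYC library, and cluster 3, led by Csf3r and Cxcr2, held 2065 and 240. Within each, Nfkbia and Nfkbiz were higher in the MYC library than the class as a whole shows. Nfkbia had 112 and 152 CPM in cluster 2 and 158 and 274 CPM in cluster 3, log2 ratios of 0.44 (0.21 to 0.69) and 0.79 (0.59 to 0.98). Nfkbiz had 169 and 214 CPM in cluster 2 and 230.3 and 326 CPM in cluster 3, log2 ratios of 0.34 (0.15 to 0.54) and 0.50 (0.32 to 0.68). In each library both genes were higher in cluster 3 than in cluster 2, and the control cells were mostly of cluster 3.

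Lower values of Nfkb1 and Rela in the MYC library were present within both clusters. Nfkb1 had log2 ratios of -0.67 (-0.91 to -0.41) and -0.38 (-0.73 to -0.04), and Rela of -0.45 and -0.52. Nfkb2 was not lower in cluster 3, at 0.07 (-0.64 to 0.72) from 158 and 22 UMIs. In cluster 2 Tnfaip3 had 6.45 and 6.20 CPM from 9 and 63 UMIs. In cluster 3 it had 9.88 and 16.8 CPM from 71 and 16 UMIs, and 6 of the 16 came from 1 cell. The summed level of the 8 markers of immature neutrophils in the class was 15415 CPM in control cells and 29006 CPM in the MYC library, and that of the 8 mature neutrophil markers 32045 and 41015 CPM. Of other cell types, some sums were lower in the MYC library, at 1319 and 719 CPM for the 12 erythroid markers, 1134 and 824 CPM for the 8 of basophils or mast cells, 313 and 230 CPM for the 11 of macrophages and 193 and 104 CPM for the 11 of conventional dendritic cells. Higher there were the sums of the 10 monocyte markers (785 and 944 CPM) and the 9 nonclassical monocyte markers (62.2 and 75.8 CPM). The part of these sums in the ratios was not tested.

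Cluster 22, led by interferon-induced genes, carried the 8 mature neutrophil markers (24761 and 31538 CPM) and the 8 immature ones (17417 and 41532 CPM) but stayed unnamed and is outside both classes. It held 218 control cells and only 38 cells of the MYC library, and its ratios were computed after the data were seen. Nfkbiz stood there at 232 CPM (198 to 269) in control cells and 170 CPM (119 to 235) in the MYC library, and Nfkbia at 178 CPM (149 to 211) and 99.0 CPM (61.3 to 151). The Nfkbia log2 ratio was -0.84 (-1.58 to -0.17), opposite in sign to clusters 2 and 3, and that of Nfkbiz was -0.45 (-1.01 to 0.08), which includes 0. Nfkb1 was lower there as well, at -1.21 (-2.26 to -0.30).

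Immature neutrophils joined clusters 1, 4, 8 and 13, which the libraries also filled differently (2113 and 1350 cells in cluster 1, 838 and 1142 in cluster 4). Nfkb1 was lower in the MYC library within each, with log2 ratios of -0.67, -0.75, -0.55 and -0.90. Rela was too, at -0.44, -0.57, -0.93 and -0.71. The IkB genes had no common direction. Nfkbia was lower within clusters 1 (-0.23, -0.34 to -0.12) and 8 (-0.18, -0.35 to -0.02) and higher within clusters 4 (0.19, 0.11 to 0.27) and 13 (0.21, 0.02 to 0.40). Nfkbiz was higher within cluster 1, at 132 and 149 CPM (0.18, 0.07 to 0.28), opposite in sign to the class, and its ratios of 0.03, 0.11 and -0.08 within clusters 4, 8 and 13 have intervals that include 0.

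Monocytes split into cluster 5, led by F13a1 (667 and 984 cells), and cluster 6, led by Fn1 and Ccr2 (618 and 631 cells). The log2 ratio of Relb was larger in cluster 5, where 5.18 and 10.5 CPM gave a log2 ratio of 1.01 (0.60 to 1.45), than in cluster 6 (0.22, -0.17 to 0.62). The same held for Nfkbia, with 0.55 (0.42 to 0.68) in cluster 5 and 0.07 (-0.08 to 0.21) in cluster 6. Nfkb1 was lower in both, at -0.60 and -0.91, and so was Tnfaip3, at -0.79 and -1.31. Icam1 was higher in both, at 0.75 (0.45 to 1.07) and 0.54 (0.18 to 0.91). The 11 macrophage markers summed to 87.0 CPM in monocytes of the control, with 1 of them at 0, and to 59.8 CPM in the MYC library. Other sums were lower there too, at 7874 and 6006 CPM for the 10 monocyte markers, 5043 and 4675 CPM for the 8 granulocyte progenitor markers, 5631 and 3966 CPM for the 8 immature neutrophil markers, 363 and 201 CPM for the 11 conventional dendritic cell markers and 500 and 345 CPM for the 9 nonclassical monocyte markers, with none at 0. Their part in the monocyte ratios was not tested.

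**Figure D4:**
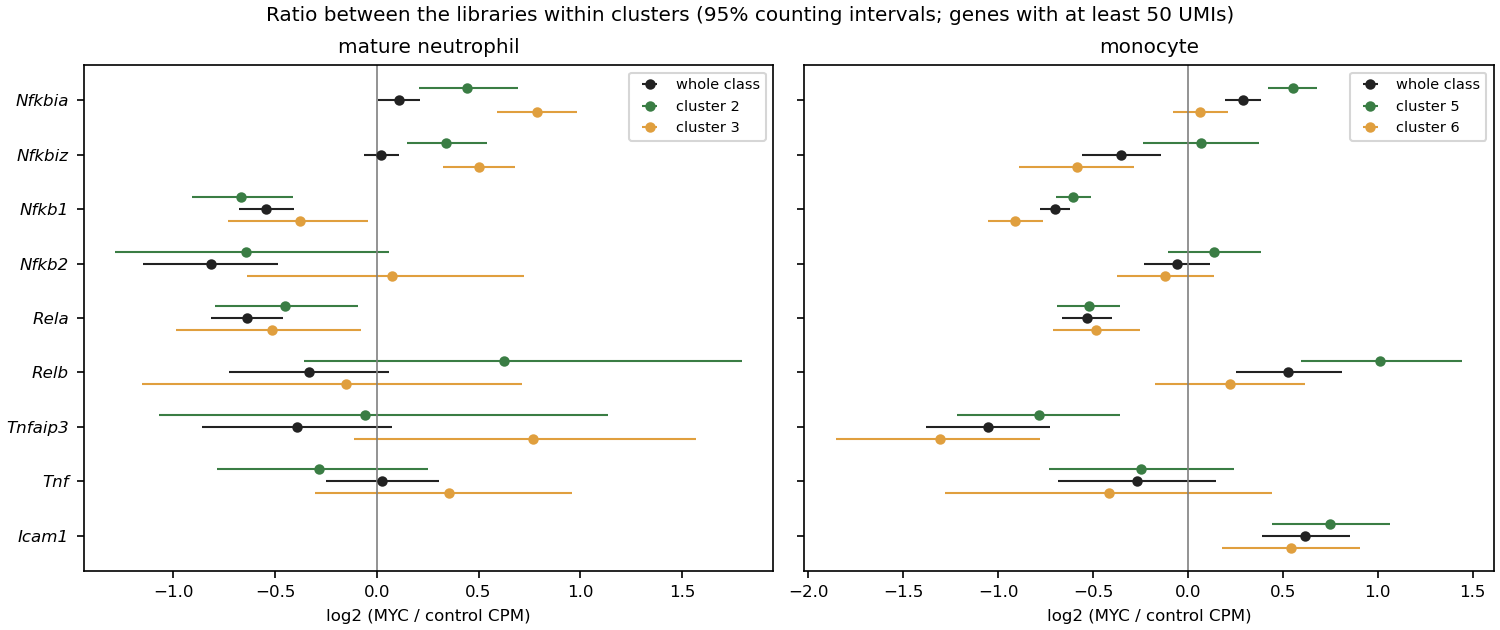
Log2 ratio of CPM, MYC library over control, for the whole class (black) and within its 2 main clusters (green and orange), with 95% counting intervals, for members with at least 50 UMIs. In mature neutrophils the Nfkbia and Nfkbiz ratios of both clusters (0.44 and 0.79, 0.34 and 0.50) lie right of the whole-class ratios of 0.11 and 0.02.

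Other classes did not all follow the neutrophils. Erythroid cells had higher Nfkbia (14.6 and 25.1 CPM, log2 ratio 0.78), Nfkb1 (25.1 and 38.5 CPM, 0.62) and Relb (28 and 26 UMIs, 1.51) in the MYC library, so 3 of the 7 members counted there were higher, beside 13.8% of all genes, and 0 were lower, beside 15.1%. The class joined clusters 7, 20 and 23, with 887, 186 and 86 control cells against 210, 98 and 145 cells of the MYC library, and the levels differed between these clusters. Within them Nfkb1 had log2 ratios of -0.12 (-0.70 to 0.41), 0.11 (-0.17 to 0.38) and 0.16 (-0.41 to 0.73), so the difference of the class was not present within its clusters at this depth. Nfkbia had 0.28 (-0.23 to 0.77), 0.61 (0.17 to 1.04) and 0.33 (-0.32 to 0.98), and Relb had at most 16 UMIs per library within each, with an interval above 0 in cluster 20 alone (1.70, 0.35 to 3.16). Markers of other cells also differed in the class. The 8 immature neutrophil markers summed to 3365 and 4847 CPM, the 10 monocyte markers to 161 and 229 CPM and the 8 granulocyte progenitor markers to 489 and 226 CPM, with none at 0. The 11 conventional dendritic cell markers summed to 123 and 61.0 CPM (1 at 0 in the MYC library). The 9 nonclassical monocyte markers summed to 89.5 and 133 CPM (1 at 0 in control cells), and the 8 mature neutrophil markers to 537 and 523 CPM. Their part in these ratios was not tested. Rela was lower in the erythroid class, at -0.48 (-0.72 to -0.23). T cells of the MYC library had 199 CPM of Nfkbia against 112 CPM (log2 ratio 0.83, 0.55 to 1.11), from 152 and 398 cells, and this was the 1 member of 8 counted as higher there, beside 10.3% of all genes, while 0 were lower beside 15.5%.

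Basophils or mast cells had 3 members lower, Nfkb1 (143 and 85.2 CPM), Rela (42.5 and 24.9) and Tnfaip3 (35.5 and 18.7), of the 6 counted, beside 20.4% of all genes. Tnf was the 1 member counted as higher in them, beside 9.04% of all genes, at 10.5 CPM (18 UMIs) in control cells and 33.9 CPM (49 UMIs) in MYC library cells, so that the log2 ratio was 1.70 (0.89 to 2.56), and 12 of the 49 UMIs came from 1 cell. In mature B cells Nfkb2 (95.3 and 51.3 CPM), Tnfaip3 (81 and 3 UMIs, log2 ratio -2.55, -4.86 to -0.96) and Nfkbiz (118 and 10 UMIs, -1.36) were lower, 3 of 8 beside 28.7% of all genes, and 0 were higher beside 6.7%.

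The smaller classes gave few calls. Nonclassical monocytes had 2 of 5 members lower (Nfkbiz and Nfkb2) beside 16.5% of all genes and 0 higher beside 13.2%. Stem or multipotent progenitors had 1 of 6 lower (Nfkbiz) beside 13.5% and 0 higher beside 6.58%. Plasma cells had 1 of 7 lower (Nfkb2, 30.3 and 17.5 CPM) beside 17.7% and 0 higher beside 18.6%. No member reached 50 UMIs in megakaryocytes, where 40.4% of genes were lower and 23.9% higher. Summed over the 3 neutrophil stages, 4 of 9 members were lower (Nfkb1, Nfkb2, Tnfaip3 and Icam1) beside 22.5% and 0 higher beside 4.34%. Over all kept cells, whose mix of classes differs between the libraries, 1 of 9 was lower (Tnfaip3, 9.17 and 5.46 CPM) beside 22.2% and 0 higher beside 8.22%.

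In mature neutrophils and monocytes, cells in which a Tnf UMI was counted also had higher Nfkbia levels in CPM. In mature neutrophils of the control 182 CPM in 166 cells with a Tnf UMI stood against 148 CPM in 2242 cells without, a ratio of 1.23 (1.02 to 1.48). In the MYC library 226 CPM in 208 cells stood against 155 CPM in 2036 cells, a ratio of 1.46 (1.28 to 1.66). Monocytes gave ratios of 1.35 (1.13 to 1.59) and 1.26 (1.09 to 1.45). Nonclassical monocytes of the control did not show it, with a ratio of 0.986 (0.579 to 1.59) from 15 cells with a Tnf UMI, and the MYC library had only 3 such cells. Cells with a Tnf UMI were deeper in the 4 groups of mature neutrophils and monocytes (4078 against 3429 median UMIs in mature neutrophils of the control). The part of depth, and that of the clusters joined in each class, was not tested. Nfkb1 showed no such difference, with ratios between 0.922 and 1.05 in those 4 groups, whose intervals all include 1. Other members gave no common picture. Rela had 0.623 (0.416 to 0.900) in mature neutrophils of the control and 1.29 (1.02 to 1.61) in monocytes of the MYC library, and Relb 0.358 (0.114 to 0.853) in monocytes of the control. In mature neutrophils of the MYC library Tnfaip3 had 2.36 (1.31 to 4.05) and Icam1 6.22 (1.97 to 18.8), the last from 16 UMIs in the class. Nfkbiz had higher levels in cells with a Tnf UMI in the MYC library, with ratios of 1.26 (1.12 to 1.42) in mature neutrophils and 1.71 (1.23 to 2.32) in monocytes, and gave 0.984 (0.827 to 1.16) and 1.23 (0.847 to 1.74) in the control.

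The wider pathway was read from lists of genes not among the 9. Of the kinases and adaptors upstream of NF-kB, 7 of 32 counted genes were at least 1.5-fold lower in granulocyte progenitors, 7 of 33 in immature neutrophils, 10 of 33 in mature neutrophils and 8 of 36 in monocytes, and 0 were higher in any of these classes, beside 3.75%, 8.73%, 9.39% and 8.88% of all genes. The lower shares, from 21.2% to 30.3%, lie near the all-gene shares of 28.2%, 18%, 25.2% and 17% in the same order. In mature neutrophils Tnfrsf1b, a receptor for TNF, had 46.8 and 23.8 CPM and Malt1, a paracaspase adaptor, 59.7 and 26.2 CPM. Tnfrsf1b was also among the lowest in granulocyte progenitors (34.2 and 17.1 CPM) and monocytes (89.9 and 46.3 CPM).

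Genes listed as inhibitors of the pathway, other than Nfkbia and Tnfaip3, were lower by 1.5-fold in 4 of 12, 3 of 12, 4 of 12 and 3 of 14 counted genes in the same order of classes. Those shares of 33.3%, 25%, 33.3% and 21.4% lie a little above the all-gene shares of 28.2%, 18%, 25.2% and 17%. From this list 1 gene was higher in immature neutrophils (Tnip2, 8.33% beside 8.73% of all genes) and 1 in monocytes (Tnip3, 7.14% beside 8.88%). Tnip1, which binds A20, had 35.5 and 18.7 CPM in mature neutrophils (log2 ratio -0.92), and the ubiquitin ligase gene Peli1 93.1 and 34.5 CPM (-1.43). Whether Peli1 acts as an inhibitor in these cells was not tested. Of the 5 remaining subunit and IkB genes, 2, 1, 2 and 1 were lower and 0, 1, 1 and 1 higher in the same order of classes, beside the all-gene shares given above. Nfkbid, a nuclear IkB gene, had 65.6 and 19.2 CPM in mature neutrophils (-1.78, -2.01 to -1.55) and -1.17 and -1.07 within clusters 2 and 3. Bcl3, another nuclear IkB gene, was higher in immature neutrophils (7.0 and 11.1 CPM) and monocytes (20.4 and 33.9 CPM). The NF-kB subunit gene Rel was lower in mature neutrophils (58.7 and 35.9 CPM), where the IkB-beta gene Nfkbib was higher (10.3 and 15.6 CPM). The 2 lower genes of granulocyte progenitors were Nfkbid (10.5 and 6.21 CPM) and Nfkbie (6.64 and 4.34 CPM).

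Target genes of the pathway included higher and lower members in each of these 4 classes. In mature neutrophils 17 of 30 counted targets were at least 1.5-fold lower (56.7%, beside 25.2% of all genes) and 2 higher (6.67%, beside 9.39%), with a median log2 ratio of -0.63 against the all-gene median of -0.24. Ptgs2, an inducible cyclooxygenase gene, had 179.7 and 23.1 CPM (-2.96), and the chemokine genes Ccl3 (21.1 and 5.21 CPM) and Ccl4 (23.5 and 4.59 CPM) were also lower. Cxcl2, a neutrophil-attracting chemokine gene, was higher, with 147.7 and 587 CPM (log2 ratio 1.99, 1.90 to 2.08). Within clusters 2 and 3 the Cxcl2 ratios were 1.94 and 2.82 and the Ptgs2 ratios -1.87 and -1.37, while Ccl3 gave -0.54 and -0.35 with intervals that include 0.

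In granulocyte progenitors 3 of 21 counted targets were higher (14.3%, beside 3.75% of all genes) and 1 lower (4.76%, beside 28.2%), with a median of 0.07 against -0.33 for all genes. In immature neutrophils 4 of 31 were higher (12.9%, beside 8.73%) and 11 lower (35.5%, beside 18%), with a median of -0.21. In monocytes 7 of 31 were higher (22.6%, beside 8.88%) and 10 lower (32.3%, beside 17%), with a median of -0.23. Monocytes of the MYC library had more Saa3, an acute-phase gene (1.72 and 35.3 CPM, log2 ratio 4.36), and Ier3 (5.76 and 16.4 CPM), and less Il1b (15.2 and 3.08 CPM) and Il1rn (8.30 and 2.17 CPM), the genes of interleukin-1 beta and of its receptor antagonist. Cxcl2 was higher in all 4 classes, with 1.04 and 6.80 CPM in granulocyte progenitors, 7.55 and 23.3 CPM in immature neutrophils and 2.21 and 8.60 CPM in monocytes.

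Immediate early genes, which also respond to handling of cells, were read beside these results. The list differed by class. Of its counted genes 7 of 20 were at least 1.5-fold higher in granulocyte progenitors (35%, beside 3.75% of all genes), 7 of 22 in immature neutrophils (31.8%, beside 8.73%), 2 of 23 in mature neutrophils (8.70%, beside 9.39%), 1 of 25 in monocytes (4%, beside 8.88%) and 8 of 21 in erythroid cells (38.1%, beside 13.8%). In the same order 1, 2, 4, 4 and 2 were lower (5%, 9.09%, 17.4%, 16% and 9.52%), beside 28.2%, 18%, 25.2%, 17% and 15.1% of all genes. In mature neutrophils the list summed to 11957 CPM in control cells and 10007 CPM in the MYC library, and in immature neutrophils to 2929 and 3218 CPM, with no gene at 0. Egr1 was higher in both (15.4 and 65.2 CPM in immature, 118.6 and 197.6 CPM in mature neutrophils), and Fosl2 lower (63.2 and 32.2 CPM, 238 and 108.8 CPM). In monocytes Socs3, a gene of cytokine feedback, had 1.99 and 17.0 CPM. The part of this list in the values of Nfkbia, Nfkbiz and Tnfaip3 was not tested.

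**Figure D5:**
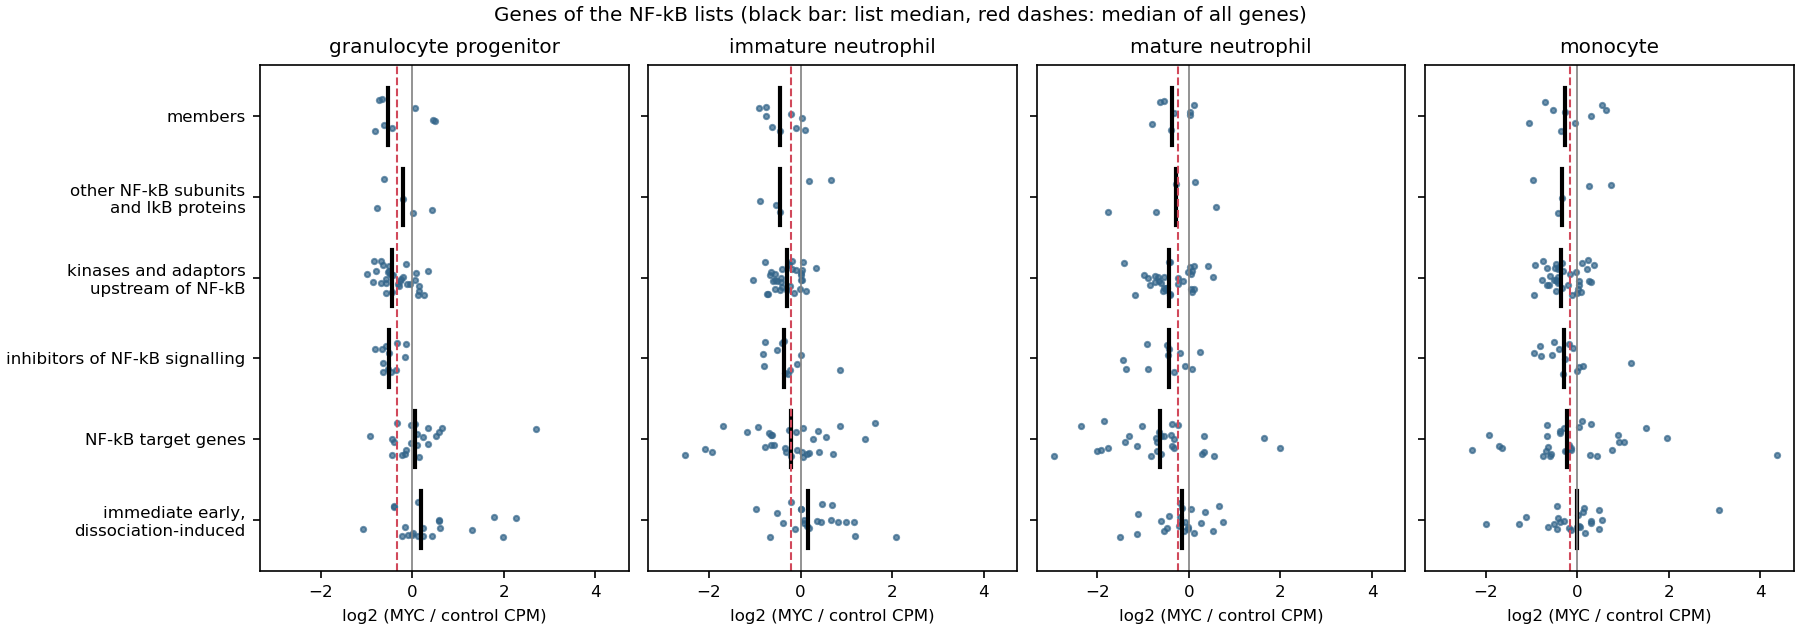
Log2 ratio of CPM, MYC library over control, of every counted gene of the members and the 5 lists in 4 classes (points, with vertical jitter only for visibility, black bars at list medians, red dashes at the median of all genes). The target genes spread most, from -2.96 (Ptgs2) to 1.99 (Cxcl2) in mature neutrophils, and their median of -0.63 there lies left of the all-gene median.

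The genes most like each member in pattern over the classes were mostly not members. Over 26 points (each a class in 1 library with at least 50 cells) and 11359 genes with at least 10 CPM in at least 1 point, the gene most like Tnfaip3 by Pearson correlation of log2(CPM + 1) was Cyld, another deubiquitinase of this pathway (r = 0.88). Nfkb2 was the second most like Relb (r = 0.85), after Zc3h12d (r = 0.88), which also came second for Nfkb2 (r = 0.90, after Shisa5 at 0.91). The most similar genes were Aldh3a2 for Nfkbiz (0.90), Kctd18 for Nfkb1 (0.92), Smg1 for Rela (0.88), Armc3 for Tnf (0.85) and Mllt6 for Icam1 (0.91). The points share libraries and depth, and these correlations are descriptions.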

How the data were processed

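UMI counts per gene and barcode were used as the authors deposited them. The file headers name Cell Ranger 6.0.0 as their source, and the submitters' processing notes name Cell Ranger 6.0, Seurat and GRCm38 (mm10). Cells with at least 500 UMIs, 200 genes and under 10% mitochondrial UMIs were kept (15461 control, 12896 MYC library). Scrublet (scanpy 1.11.5) set an automatic threshold that marked no MYC library cell, so 1 score threshold of 0.2, chosen after that was seen, removed 558 (3.61%) and 356 (2.76%). Leiden clustering (leidenalg 0.10.2, resolution 1, seed 0) used 15 neighbours, 30 principal components and 2000 variable genes, without members, listed genes, Myc, MYC, and genes of antigen receptors, ribosomes and mitochondria. A cluster was matched to 1 of 19 cell types, the one with the highest mean standardised marker level among types with at least 3 markers detected. It stayed unnamed if no marker of that type was among its leading genes, or if another type had more markers there. Clusters with median UMIs under 0.2 of the library's also stayed unnamed.

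UMIs were summed per class and library and given as CPM. Intervals are exact (Poisson for levels, conditional binomial for ratios, Clopper-Pearson for shares), computed with scipy 1.17.1. The computation of the ratio intervals was checked on simulated Poisson counts, the error that they assume. That check cannot show how they hold under variation between cells, mice or libraries. Genes with 0 UMIs were set to 3 counts for all-gene shares. No p-value is given. Free RNA was not corrected. Members, lists and the low-UMI rule were chosen with earlier results of these data known. All 9 members were named; of other lists, per class, the 3 highest and 3 lowest ratios whose interval excluded 1, with at least 50 UMIs, and per member the most correlated genes (those of Nfkbia are not reported here). UMIs per cell and within-cluster ratios were alternatives added after the data were seen.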

Additional observations from a re-analysis of the deposited data

How the results depend on the processing

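Of 396 recomputed log2 ratios of members in 4 classes, 309 stayed within the counting interval of the reported value, 75 moved outside it without changing a called direction and 12 reversed a called direction. The ratio of Nfkbiz in immature neutrophils became 0.11 with median-of-ratios scaling, 0.019 with each library clustered on its own, 0.081 per cell, and 0.18, 0.028 and 0.11 within clusters 1, 4 and 8. That of Nfkbia there became -0.23 within cluster 1 and -0.18 within cluster 8. In mature neutrophils Icam1 became 0.72 within cluster 2 and 0.061 within cluster 3 and Nfkb2 0.075 within cluster 3, and in monocytes Nfkbiz became 0.067 within cluster 5. Within the same 4 classes, list medians changed sign under median-of-ratios scaling for the other subunits and IkB proteins in granulocyte progenitors (0.14) and for immediate early genes in mature neutrophils (0.074) and monocytes (0.15). Some list medians of other classes changed sign as well.

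Counts of members at least 1.5-fold lower in granulocyte progenitors were 1 at Leiden resolution 0.5, 2 when cells were averaged and 0 with median-of-ratios scaling. Higher members there were 2 with that scaling and 3 with each library clustered on its own. Lower members were 1 in immature neutrophils, 0 in mature neutrophils and 1 in monocytes, both with median-of-ratios scaling and per cell. Higher members in monocytes were 2 under both of these, and 0 at Leiden resolution 0.5, with doublets kept, with cells under 5% mitochondrial UMIs and with at least 1000 UMIs and 500 genes. The cause was not tested, beyond the scaling shift itself. The other 63 of 80 recomputed counts stayed within 1.5 times of the reported count. Leaving out the richest cell kept all 72 levels within their intervals. No paired analysis was possible because each group has 1 library. Depth limits Nfkb2, Relb, Tnfaip3, Tnf and Icam1, which had at most 253 UMIs per library in mature neutrophils.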

Other observations

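In the unnamed cluster 11, with 637 cells in the MYC library and 20 in the control, the members other than Nfkbia stood in the MYC library at 254.7 CPM (Nfkb1), 244.9 CPM (Nfkbiz), 49.9 CPM (Rela), 44.7 CPM (Nfkb2), 20.5 CPM (Relb), 15.3 CPM (Tnfaip3), 14.5 CPM (Tnf) and 12.2 CPM (Icam1). After thinning to 2000 UMIs, 50.5% of its cells held a Nfkbia UMI (45.9 to 55.1), against 31.4% of nonclassical monocytes and 17.6% of monocytes in that library. The 20 control cells gave 105 CPM of Nfkbia from 12 UMIs (54.5 to 184) and 457 CPM of Nfkbiz from 52 UMIs, too few cells for a comparison.

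Cluster 16, led by MHC class II genes, held 240 control cells and 184 cells of the MYC library. Its log2 ratios were -0.75 (-0.98 to -0.53) for Nfkb1, -0.70 (-1.15 to -0.26) for Rela, -1.04 (-1.71 to -0.40) for Tnfaip3, -0.89 (-1.40 to -0.39) for Icam1 and -0.97 (-1.42 to -0.52) for Nfkbiz, beside a median of -0.04 over all genes. Nfkbia had 180.3 and 154 CPM there, with a log2 ratio of -0.23. Relb (36.6 and 32.7 CPM) had -0.16 (-0.68 to 0.35) and Nfkb2 -0.52 (-0.92 to -0.12). Marker sums also differed there, at 20756 and 16139 CPM for the 11 conventional dendritic cell markers, 2285 and 1236 CPM for the 11 macrophage markers and 1190 and 408 CPM for the 12 erythroid markers, with none at 0, and their part in these ratios was not tested.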
